A study of Homo sapiens with 6 samples.

Results

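The genes described here encode the translation initiation factors (eIFs) and elongation factors (eEFs) of human cytoplasmic protein synthesis, together with their direct binding proteins and modifiers. Members were taken from the deposited count table as protein-coding genes whose symbol starts with EIF1, EIF2, EIF3, EIF4, EIF5, EIF6, EEF1 or EEF2. The 4 kinases of eIF2, whose symbols start the same way, were left out of the members. This gave 63 genes of the 25071 in the table, sorted into 14 factor complexes or roles, and all 63 passed the filter on low counts. A further 4 genes that fit the rule in the GENCODE 29 annotation, EEF1G, EIF4E1B, EEF1AKMT4-ECE2 and EEF1E1-BLOC1S5, were absent from the count table and so were not analysed. EEF1G, an elongation factor gene, shares 99.9% of its exon bases with AP002990.1 on the same strand, and why it was absent was not tested. RNA was sequenced from PLC/PRF/5, an established human hepatoma cell line. One group received a control vector (3 libraries) and the other a plasmid that expresses ARD1 (3 libraries), and both were collected 48 hours after transfection. The labels name no further allele, drug or time and give both groups as the same line, transfected, but they do not say whether both came from 1 stock of cells. The gene is now named NAA10 and encodes the catalytic part of NatA, a complex that acetylates the N terminus of many proteins. The comparison therefore asks which factor transcripts differed between cells given the ARD1 plasmid and cells given the vector.

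In the textbook pathway, eIF2 carries the initiator tRNA in a complex with GTP, and eIF2B recharges eIF2 with GTP after each round. eIF3, eIF1, eIF1A and eIF5 assemble this complex on the small ribosomal subunit, while the cap-binding complex eIF4F, made of eIF4E, eIF4G and eIF4A, brings in the mRNA. The 4E-binding proteins hold eIF4E away from eIF4G when mTORC1 signalling is low. During elongation eEF1A delivers aminoacyl-tRNA, the eEF1B subunits recharge eEF1A, eEF2 moves the ribosome along, and eIF5A helps at stalled peptide bonds. Many mRNAs of the elongation factors and of some initiation factors begin with a C followed by a run of pyrimidines, the terminal oligopyrimidine (TOP) motif, through which their translation follows mTORC1 activity.

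The libraries held 21857327 to 25011357 counts, and levels are given in CPM, which is counts after scaling for library size (3 counts are 0.120 to 0.137 CPM). One library, control replicate 1, differed from its group: chi-square over degrees of freedom was 17.4 and 20.2 between it and the remaining controls, and 2.51 to 4.35 for every other pair of libraries of 1 group. NAA10 was measured at 35.5, 32.1 and 36.2 CPM in controls and 355, 399.8 and 294 CPM with ARD1, 10.1-fold higher by the fit. Of the 15816 genes tested, 64.6% passed an adjusted p of 0.05, with 32.4% higher and 32.2% lower. The scaling of libraries bears on every direction below: scaling factors by TMM (trimmed mean of M values) were 0.88 to 0.931 in control and 1.09 to 1.101 in ARD1 libraries, and with library totals alone the median log2 fold change of all genes rose from 0.03 to 0.30, a shift of 0.26. Of the hepatocyte and hepatoma markers, 3 of the 8 tested rose and 5 fell, and the summed level of all 10 was 3245 to 4043 CPM in control and 1894 to 1971 CPM in ARD1 libraries. The line had KRT8 and KRT18 at high levels, but APOA1 and TTR were near 0 in every library. Summed fibroblast markers were at 77.9 to 98.5 CPM in control and 17.6 to 20.2 CPM in ARD1 libraries, endothelial markers at 69.9 to 82.6 and 90.1 to 103 CPM, and immune markers at 16.1 to 18.7 and 8.65 to 9.48 CPM. Of the endothelial markers tested 3 rose (PECAM1, KDR and VWF, by 0.82, 2.05 and 5.29 on the log2 scale) and CDH5 fell, from 30.5 to 35.3 CPM in control libraries to at or near 0 in the ARD1 libraries. Of the 5 fibroblast markers tested COL1A1 rose (1.55), COL3A1 and LUM fell (-4.80 and -2.01) and 2 did not pass, and of the 3 immune markers tested 2 fell and none rose. ALB, the serum albumin gene, fell by 3.12 on the log2 scale, and CD3E and COL1A2 were near 0 in every library. A difference in the stock of cells cannot be told apart from the plasmid, the part of these shifts in the results below was not tested, and fewer cells of a type cannot be told apart from less RNA per cell.

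The factor transcripts did not all move one way. Of the 63 members, 13 were higher and 25 lower in the ARD1 libraries by edgeR's quasi-likelihood test (Benjamini-Hochberg adjusted p under 0.05 over all tested genes), so 20.6% were higher and 39.7% lower beside the backgrounds of 32.4% and 32.2%. Their median log2 fold change was -0.06, against 0.03 over all genes. Transcripts of the eEF1A, eEF1B and eEF2 genes (5 of 5, EEF1G not analysed) and of 11 of the 14 eIF3 genes were lower. In contrast, 3 of the 4 genes of 4E-binding proteins were higher. Of the 7 genes grouped under start codon recognition 3 were higher and none lower (42.9% higher), but with GC and length offsets 3 were higher and 3 lower. The members together took 1.64, 1.65 and 1.66% of all counts in control libraries and 1.44, 1.49 and 1.44% in ARD1 libraries, without overlap. EEF1A1 and EEF2 held 122572 and 65097 of the 409846 member counts in control replicate 1. In ARD1 replicate 1 they held 75823 and 27942 of 314297. In these shares of library totals EEF1A1 and EEF2 carried the fall, as the share of the other members was higher in every ARD1 library than in any control library. The shares are without TMM scaling, and by the main scaling most of the 25 lower members were other genes. With library totals alone 25 members were higher and 17 lower (59.5% of the called members higher, in place of 34.2%), beside backgrounds of 48.0% and 22.1%. The members not called by the main scaling that passed as higher with library totals were EIF1AX (0.45), EIF2S2 (0.33), EIF2B4 (0.30), EIF3A (0.38), EIF4E (0.37), EIF4G1 (0.36), EIF4G2 (0.22), EIF4H (0.33), EIF4A3 (0.41), EIF5A (0.23), EEF1E1 (0.50) and EEF1AKMT2 (0.62). With offsets for GC content and transcript length 16 were higher and 31 lower, beside 33.6% and 34.6%. Without control replicate 1 the counts were 16 higher and 28 lower, with 7 calls gained and 1 lost. The calls gained were EIF5 (-0.15), EIF5B (-0.21), EIF2D (-0.14), EIF3CL (-0.50), EIF4G1 (0.19), EIF4H (0.10) and EIF4A3 (0.18), and the call lost was EIF3C. In every fit made, 27 of the 38 called members kept their call and direction, 10 of them higher and 17 lower.

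**Figure D1:**
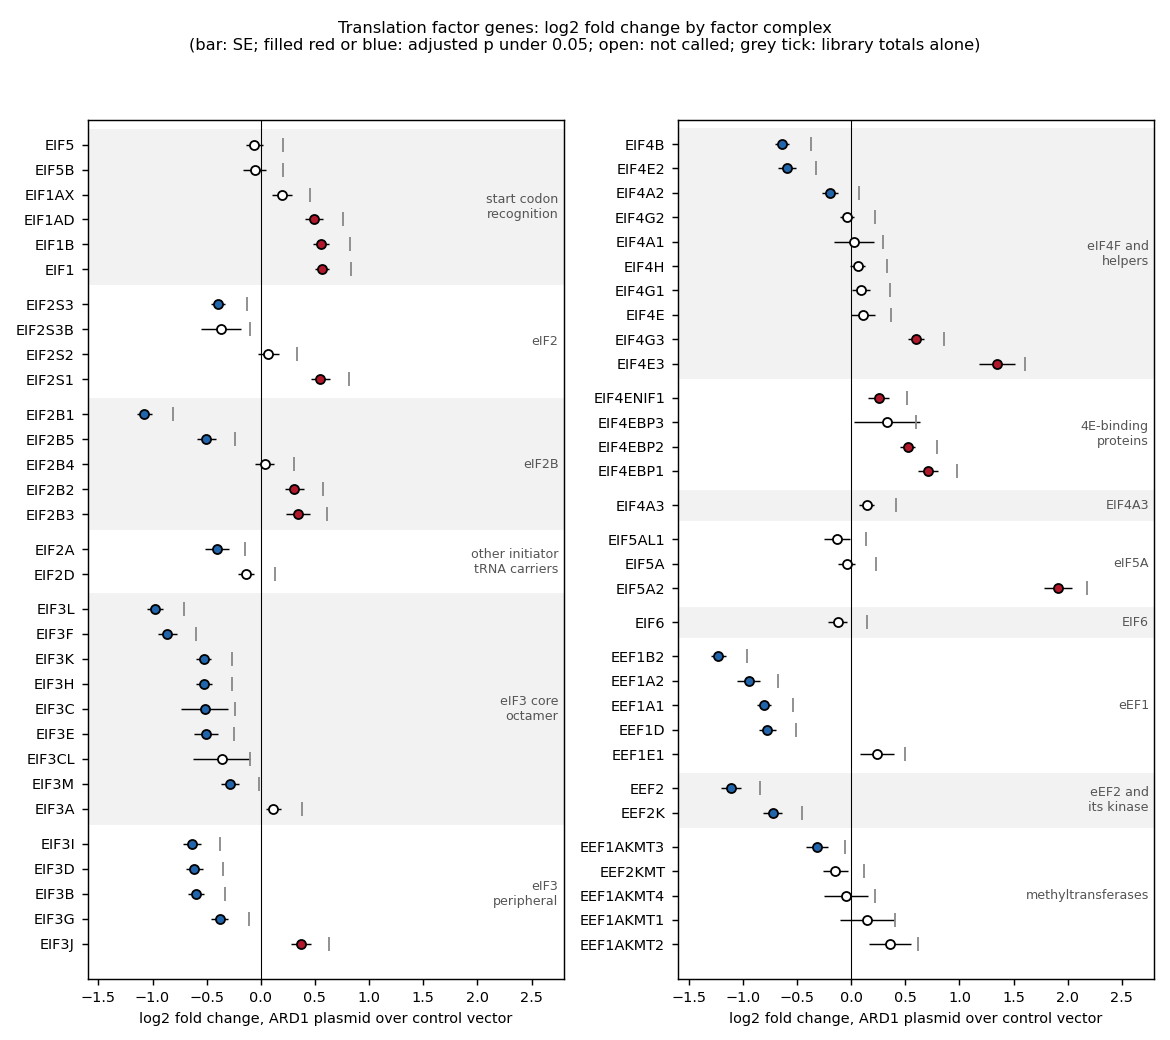
Log2 fold change (ARD1 plasmid over control vector, x axis) of 62 of the 63 members by factor complex. Points are estimates from 3 against 3 libraries, bars are SE, filled points passed an adjusted p of 0.05, and grey ticks give the estimate with library totals alone. The eIF3 and eEF1 genes lie mostly left of 0 and the 4E-binding proteins right of 0, with EIF5A2 farthest right at 1.91 and EEF1B2 farthest left at -1.23; every grey tick lies to the right of its point.

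Because lower members were frequent among the factors known for TOP mRNAs, the first bases of the transcripts are shown for some members. These were picked with their directions known and do not stand for all members. Each sequence holds 15 bases before and 15 from the RefSeq transcription start (GRCh38.p14), 5′ to 3′ on the gene's own strand, and capitals mark a C at the first transcribed base with the C and T run that follows it. The first set holds members that were lower and have such a run.
EEF1A1: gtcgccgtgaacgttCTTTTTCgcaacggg
EEF2: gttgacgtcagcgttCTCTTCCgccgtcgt
EEF1B2: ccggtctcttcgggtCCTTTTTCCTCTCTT
EIF4B: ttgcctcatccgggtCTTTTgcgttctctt
EIF3F: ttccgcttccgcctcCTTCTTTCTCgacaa
EIF3D: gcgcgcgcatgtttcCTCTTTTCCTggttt
EIF3K: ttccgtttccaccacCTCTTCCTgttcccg
EIF2S3: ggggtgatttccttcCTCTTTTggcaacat
The next set holds members without it, of which EIF2B1 was lower and the other 4 higher.
EIF5A2: cccgccccgtctcttggaactgccgcggcc
EIF4EBP2: ctcccgccttcgcccgcttccggtcgtcgt
EIF1: aggcaccgcccctctgccccagtcactgag
EIF2S1: gcgaggaggttccgcatgcgcggtggagtg
EIF2B1: gaggggtacggaagtgcgccggaagtgggg
The windows of EEF1A1, EEF2 and EEF1B2 lie at chr6:73521018-73521047 (minus), chr19:3985449-3985478 (minus) and chr2:206159880-206159909 (plus), those of EIF4B, EIF3F and EIF3D at chr12:53006441-53006470 (plus), chr11:7987322-7987351 (plus) and chr22:36529152-36529181 (minus), and those of EIF3K and EIF2S3 at chr19:38619173-38619202 (plus) and chrX:24054941-24054970 (plus). EIF5A2 and EIF4EBP2 start within chr3:170908623-170908652 (minus) and chr10:70404130-70404159 (plus), EIF1 and EIF2S1 within chr17:41688870-41688899 (plus) and chr14:67360313-67360342 (plus), and EIF2B1 within chr12:123633672-123633701 (minus). EEF1B2 has another RefSeq start 286 bases upstream without the run. Not shown are EIF2D and EIF2S3B, which have the run and were not called. Also not shown are EIF2A, EIF3M and EIF4A2, which have the run and were lower (-0.40, -0.28 and -0.19). None of these was lower past the threshold with library totals alone. Of all 37 members with a start window but no run, 7 were lower, 12 higher and 18 not called.

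Among the genes grouped under small-subunit binding and start codon recognition, 3 of 7 were higher and none lower (median log2 fold change 0.26). EIF1, which keeps the scanning complex open until the start codon is found, had the highest level per kb of this group (171 CPM per kb in control libraries). It stood at 651, 591 and 614 CPM in the 3 controls, against 901, 942 and 902 CPM after ARD1 (log2 change 0.57 with SE 0.0672, adjusted p = 3.54e-06). All ARD1 libraries lay above all control libraries. EIF1B, a close paralogue of EIF1, was lower in level but moved by the same amount, from 56.02 ± 2.79 to 82.5 ± 2.35 CPM (SD, n = 3), with a log2 fold change of 0.56 (SE 0.0732). EIF1AD, which carries an eIF1A-like domain and was placed in this group by its symbol, was higher as well (0.49, SE 0.0804). EIF1AX, EIF1AY, EIF5, the GTPase activator of eIF2, and EIF5B, the GTPase of subunit joining, did not pass the test, with estimates of -0.06 for both EIF5 and EIF5B and 0.19 for EIF1AX. With the GC and length offsets EIF1AX, EIF5 and EIF5B passed as lower (-0.19, -0.27 and -0.34), which reversed the sign for EIF1AX, while library totals alone gave 0.20 for both EIF5 and EIF5B and 0.45 for EIF1AX. EIF1AX passed as higher with library totals alone, upper-quartile scaling (0.24), the replicate block (0.20) and without control replicate 3 (0.24).

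The eIF2 subunits did not move together. EIF2S1, the alpha subunit that the eIF2 kinases phosphorylate, was at 55.3, 66.2 and 67.96 CPM with the vector, compared with 83.7, 96.1 and 97.6 CPM with ARD1 (log2 change 0.55 with SE 0.091004, adjusted p = 8.86e-05). The groups did not overlap, and the ARD1 libraries were 1.46-fold higher. EIF2S2, the beta subunit and the eIF2 gene with the highest level per kb, was at 226, 289.8 and 316 CPM against 291, 284 and 298 CPM. Its groups overlapped, with control replicate 1 lowest, and it did not pass the test (0.07, 95% interval -0.12 to 0.26). EIF2S3, the gamma subunit that binds GTP and the tRNA, was lower by the main scaling (-0.39, SE 0.0646) but did not pass with library totals alone (-0.13). Its retrogene copy EIF2S3B, at 2.72 to 4.32 CPM, did not pass (-0.37, but lower with the offsets at -0.48 and without ARD1 replicate 2 at -0.55), and reads of this near-identical pair may be split between them.

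The subunits of the exchange factor eIF2B, which work as 1 complex, also split, with 2 higher, 2 lower and 1 not called, and a span of 1.42 on the log2 scale. These shares, 40.0% each way, are near the 32.4% higher and 32.2% lower of all tested genes. EIF2B1, the regulatory alpha subunit at chr12:123620406-123633766 on the minus strand (GRCh38, GENCODE 29), was at 115, 116 and 111 CPM with the vector and 54.5, 53.4 and 54.3 CPM with the plasmid. This was 2.11-fold lower with almost no spread in either group (log2 change -1.08 with SE 0.0691, adjusted p = 4.70e-09), although 15.6% of its exon bases lie opposite exons of DDX55 and GTF2H3. EIF2B5, the catalytic epsilon subunit, fell from 70.8 ± 5.26 to 50.02 ± 4.11 CPM (SD, n = 3) (-0.50, SE 0.0848), and its groups did not overlap. In contrast EIF2B2, the beta subunit, was higher (0.31, SE 0.08804), as was EIF2B3, the gamma subunit (0.35, SE 0.109), whose call was lost without control replicate 3 (0.30) or without ARD1 replicate 2 (0.26). EIF2B4, the delta subunit, did not pass (0.04, 95% interval -0.14 to 0.21). The remaining initiator tRNA carriers were EIF2A and EIF2D. EIF2A was at 64.8, 86.5 and 93.1 CPM in controls and 58.5, 65.2 and 60.97 CPM with ARD1 (-0.40, adjusted p = 0.00477). Its groups overlapped, since control replicate 1 was just below an ARD1 library, and the estimate was -0.14 and not past the threshold with library totals alone. EIF2D did not pass (-0.13, and 0.13 with library totals alone), but passed as lower with the GC and length offsets (-0.27).

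Transcripts of eIF3, the scaffold that holds the initiation complex together, were mostly lower. Of its 14 genes, 11 were lower and 1 higher, with a median log2 fold change of -0.52 and a span of 1.34. With library totals alone 7 were lower and 2 higher, and the median was -0.25. In the core octamer 7 of 9 genes were lower. EIF3L was at 144, 129.8 and 125 CPM in the 3 controls, against 69.5, 65.8 and 67.5 CPM after ARD1 (log2 change -0.98 with SE 0.0758, adjusted p = 3.90e-08). It had the largest fall in the complex, 1.97-fold, and the groups were far apart, but 41.1% of its exon bases are shared with AL022311.1 on the same strand. EIF3F was at 159, 133 and 129.9 CPM with the vector, compared with 74.5, 80.9 and 76.8 CPM with ARD1 (log2 change -0.86 with SE 0.0846, adjusted p = 4.88e-07). Again every control library was above every ARD1 library. EIF3K, a small subunit that pairs with EIF3L at the edge of the octamer, was at 135, 127 and 128 CPM with the vector and 89.8, 89.5 and 90.8 CPM with the plasmid (-0.53, SE 0.0671). EIF3H, an MPN-domain subunit like EIF3F, was at 315, 336 and 354 CPM in controls and 221, 245 and 232 CPM with ARD1 (-0.53, SE 0.0714). Neither gene's groups overlapped. EIF3E, the core gene with the highest level per kb (67.4 CPM per kb), was at 315, 433 and 466 CPM in the 3 controls, against 277, 291 and 288 CPM after ARD1 (-0.50, SE 0.1098). Control replicate 1 was the lowest control, still above the ARD1 libraries, and with library totals alone the estimate of -0.25 did not pass.

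The other core genes held the weakest calls of the complex. EIF3M was lower (-0.28, SE 0.082003), but not with library totals alone (-0.02) or without ARD1 replicate 1 (-0.24). EIF3C was at 80.8, 44.5 and 36.5 CPM with the vector, compared with 43.3, 39.3 and 30.5 CPM with ARD1. The control level came mainly from replicate 1, and the call (-0.52, adjusted p = 0.0469) was lost without it (-0.11, adjusted p = 0.285; range over its alternatives 0.000362 to 0.342), as well as without ARD1 replicate 2 or 3, with upper-quartile scaling, library totals alone, DESeq2, limma-voom and a filter at 1 CPM in 3 libraries. EIF3C shares nearly all of its sequence with EIF3CL, which did not pass (-0.36) but was lower without control replicate 1 (-0.50) or 3 (-0.67) and stood at 0.12 without control replicate 2, so the counts of this pair are uncertain. EIF3A, the largest subunit, did not pass at 299.5, 334 and 333 CPM with the vector and 357, 343 and 346 CPM with the plasmid (0.11, 95% interval -0.02 to 0.25). Of the peripheral subunits 4 of 5 were lower. EIF3B, the RNA-binding scaffold of this module, was at 629, 547 and 524 CPM in controls and 378, 381 and 364 CPM with ARD1 (log2 change -0.60 with SE 0.0763, adjusted p = 7.44e-06). EIF3I, a WD40-repeat subunit with the highest level per kb of the module, was at 140.3, 119 and 122 CPM in the 3 controls, against 80.6, 87.6 and 76.6 CPM after ARD1 (-0.64, SE 0.0823). EIF3D, which can bind the cap of some mRNAs, was at 207, 172 and 178 CPM with the vector, compared with 117, 128 and 119 CPM with ARD1 (-0.61, SE 0.0807). The lowest control library was 1.37, 1.36 and 1.34 times the highest ARD1 library for the 3 genes. EIF3G, an RNA-binding subunit, was lower (-0.38), but its estimate was -0.11 with library totals alone and -0.01 with the GC and length offsets, neither past the threshold. EIF3J, a loosely bound subunit near the mRNA entry channel, was the one gene that rose, from 66.8 ± 7.52 to 86.3 ± 7.57 CPM (SD, n = 3) (0.37, adjusted p = 0.00259), and with the offsets 0.14 did not pass.

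In the cap-binding complex eIF4F and its helpers, the standard subunits did not pass the test and several paralogues did, with 2 of 10 genes higher, 3 lower and 5 not called. EIF4E, the cap-binding protein, was at 30.3, 38.9 and 42.03 CPM with the vector and 38.4, 43.7 and 37.8 CPM with the plasmid, with overlapping groups (0.11, 95% interval -0.11 to 0.33). EIF4G1, the main scaffold, was at 790.4, 655 and 611 CPM in controls and 732, 748 and 711 CPM with ARD1 (0.09, 95% interval -0.08 to 0.26). Control replicate 1 was the highest library for EIF4G1 and the lowest control for EIF4E. With library totals alone both passed as higher (0.37 and 0.36), and with the offsets EIF4E passed as lower (-0.23) and EIF4G1 as higher (0.29). EIF4E3, a cap-binding paralogue at chr3:71675416-71754773 on the minus strand, was at 2.27, 3.32 and 2.602 CPM in the 3 controls, against 6.52, 6.89 and 7.41 CPM after ARD1 (log2 change 1.35 with SE 0.1696, adjusted p = 6.46e-06). It rose 2.54-fold without overlap, at the lowest level per kb of all members. EIF4E2, a cap-binding paralogue known for repressing translation with GIGYF2, went the other way, at 61.4, 55.9 and 57.3 CPM with the vector, compared with 38.05, 41.6 and 36.1 CPM with ARD1 (log2 change -0.59 with SE 0.0822, adjusted p = 1.67e-05), with 24.2% of its exon bases opposite other genes. The scaffold paralogue EIF4G3 was at 93.2, 102 and 105 CPM with the vector and 152, 146 and 157 CPM with the plasmid (log2 change 0.60 with SE 0.0724, adjusted p = 4.20e-06). In all 3 paralogues the groups did not overlap. EIF4G2, a scaffold that lacks the eIF4E-binding site, was at 719, 751 and 761 CPM in controls and 723, 735 and 711 CPM with ARD1 and did not pass (-0.04, but 0.22 with library totals alone and -0.31 with the offsets, both past the threshold in opposite directions).

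Of the helicases and their helpers, EIF4B changed most. EIF4B, which stimulates the eIF4A helicase and had the highest level per kb of the group (154 CPM per kb), was at 961, 952 and 922 CPM in the 3 controls, against 599, 619 and 602 CPM after ARD1 (log2 change -0.64 with SE 0.0639, adjusted p = 5.84e-07). The ARD1 libraries were 1.56-fold lower, the groups were far apart, and 11.9% of the exon bases lie opposite AC068888.1. EIF4H, a related cofactor, did not pass (0.06, 95% interval -0.08 to 0.20), but was higher with library totals alone (0.33) and with the offsets (0.15). EIF4A2, a helicase paralogue, was at 323, 369.7 and 381 CPM with the vector, compared with 296, 323 and 319.9 CPM with ARD1, lower by -0.19 in the main fit (adjusted p = 0.0366) and at 0.07 with library totals alone. Its call was also lost without any 1 of control replicates 2 and 3 or the ARD1 replicates. EIF4A1, usually the dominant helicase, was counted at only 3.95, 5.79 and 5.11 CPM with the vector and 3.97, 5.51 and 5.63 CPM with the plasmid (0.03, 95% interval -0.33 to 0.39). As 48.6% of its exon bases are shared on the same strand with the readthrough gene SENP3-EIF4A1 and other genes, its counts may not cover its transcripts, and the part of this was not tested. EIF4A3, the helicase of the exon junction complex rather than of initiation, was at 185, 166 and 168 CPM in controls and 186, 201 and 188 CPM with ARD1 and did not pass (0.14, adjusted p = 0.0869) despite non-overlapping groups.

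Of the 4 genes of proteins that hold eIF4E, 3 rose. EIF4EBP1 was at 75.7, 60.7 and 59.3 CPM in the 3 controls, against 112, 104 and 104 CPM after ARD1 (log2 change 0.71 with SE 0.0918, adjusted p = 8.29e-06), and per kb it was the most abundant of the 4 (60.8 CPM per kb). EIF4EBP2, the paralogue, was at 101, 95.5 and 95.8 CPM with the vector, compared with 145, 134 and 141 CPM with ARD1 (log2 change 0.52 with SE 0.0692, adjusted p = 1.04e-05). Every ARD1 library was above every control library for both. EIF4ENIF1, which imports eIF4E into the nucleus, passed narrowly (0.25, adjusted p = 0.0375), and its call was lost without control replicate 2 or 3, without ARD1 replicate 1 or 2, and with RLE scaling, DESeq2 or no filter. EIF4EBP3 did not pass at 0.712 to 1.61 CPM (0.33, 95% interval -0.27 to 0.92), and 73.4% of its exon bases belong to ANKHD1-EIF4EBP3 as well. The direction of the 3 called genes held with library totals alone (0.98, 0.79 and 0.52) and with the offsets (1.18, 0.33 and 0.30).

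The largest rise of any member was in EIF5A2. eIF5A is the hypusine-carrying factor that relieves stalled ribosomes, and EIF5A2, at chr3:170888415-170908693 on the minus strand, encodes its second isoform. It stood at 8.998, 13.6 and 11.3 CPM with the vector and 46.1, 38.8 and 42.8 CPM with the plasmid. The lowest ARD1 library was 2.85 times the highest control library, and the fitted change was 3.77-fold (log2 change 1.91 with SE 0.128, adjusted p = 7.66e-09), with 2.17 by library totals alone and 1.49 with the offsets. EIF5A itself was at 507, 427 and 422 CPM in controls and 440.2, 448 and 429.9 CPM with ARD1, with overlapping groups (-0.04, 95% interval -0.19 to 0.11), although library totals alone (0.23) and the offsets (0.24) each gave it a positive value past the threshold. EIF5AL1, a near-identical copy of EIF5A, did not pass (-0.13). EIF6, which keeps the ribosomal subunits apart, was at 131, 109 and 102 CPM in the 3 controls, against 105, 108 and 101 CPM after ARD1 and did not pass (-0.12, with 0.15 by library totals alone and 0.17, past the threshold, with the offsets), and 17.4% of its exon bases are shared with AL121753.1. Without control replicate 3 EIF6 passed as lower (-0.23).

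Elongation factor transcripts were lower or not called. Of the 12 elongation genes 7 were lower and none higher, and the 5 genes of the factor proteins themselves had a median log2 fold change of -0.95, or of -0.68 by library totals alone, where all 5 were lower too. EEF1A1, at chr6:73515750-73523797 on the minus strand, had the highest level per kb of all members (954 CPM per kb in control libraries). It was at 5570.1, 5708 and 5744 CPM with the vector, compared with 3170.003, 3371 and 3214 CPM with ARD1 (log2 change -0.80 with SE 0.0672, adjusted p = 8.72e-08). The control libraries lay within 3.13% of the lowest and 1.75-fold above the ARD1 group by the fit, although EEF1A1 has many near-identical processed copies that may draw reads. EEF1A2, the isoform typical of muscle and brain, was at 94.6, 72.4 and 68.1 CPM with the vector and 39.3, 41.5 and 41.3 CPM with the plasmid (log2 change -0.95 with SE 0.107, adjusted p = 2.13e-06). Control replicate 1 was the highest library, and all controls were above all ARD1 libraries. EEF1B2, the exchange subunit eEF1B-alpha at chr2:206159585-206162928 on the plus strand, was at 183, 172 and 175 CPM in controls and 73.1, 78.5 and 74.9 CPM with ARD1 (log2 change -1.23 with SE 0.0692, adjusted p = 1.23e-09). This 2.34-fold difference was the largest fall of any member, and 16.4% of its exon bases are shared with small RNA genes. EEF1D, the exchange subunit eEF1B-delta, was at 502, 414 and 427 CPM in the 3 controls, against 267, 269 and 249.5 CPM after ARD1 (log2 change -0.77 with SE 0.0797, adjusted p = 8.02e-07), with 34.0% of its exon bases opposite other genes. EEF1E1, a scaffold protein of the aminoacyl-tRNA synthetase complex, did not pass (0.24, 95% interval -0.07 to 0.55).

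The transcripts of EEF2 and of its kinase were both lower. EEF2, the translocase at chr19:3976056-3985469 on the minus strand and second in level per kb (628 CPM per kb), was at 2958, 2352 and 2271 CPM with the vector, compared with 1168, 1217 and 1129 CPM with ARD1 (log2 change -1.11 with SE 0.0924, adjusted p = 8.27e-08). Control replicate 1 was the highest library, and even the lowest control was 1.87 times the highest ARD1 library. EEF2K, the kinase that inactivates eEF2 by phosphorylation, was at 144, 122 and 116 CPM with the vector and 77.97, 73.1 and 79.9 CPM with the plasmid (log2 change -0.73 with SE 0.0859, adjusted p = 3.40e-06), with no overlap. Of the 5 methyltransferases that modify elongation factors, EEF1AKMT3 was lower, at 20.9, 20.9 and 24.9 CPM in controls and 17.4, 16.8 and 19.6 CPM with ARD1 (-0.32, adjusted p = 0.0161), but not with library totals alone (-0.05) or without control replicate 3 (-0.26), ARD1 replicate 1 (-0.29) or ARD1 replicate 2 (-0.27). The other 4, all under 11 CPM, did not pass, with estimates from -0.15 (EEF2KMT) to 0.36 (EEF1AKMT2).

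**Figure D2:**
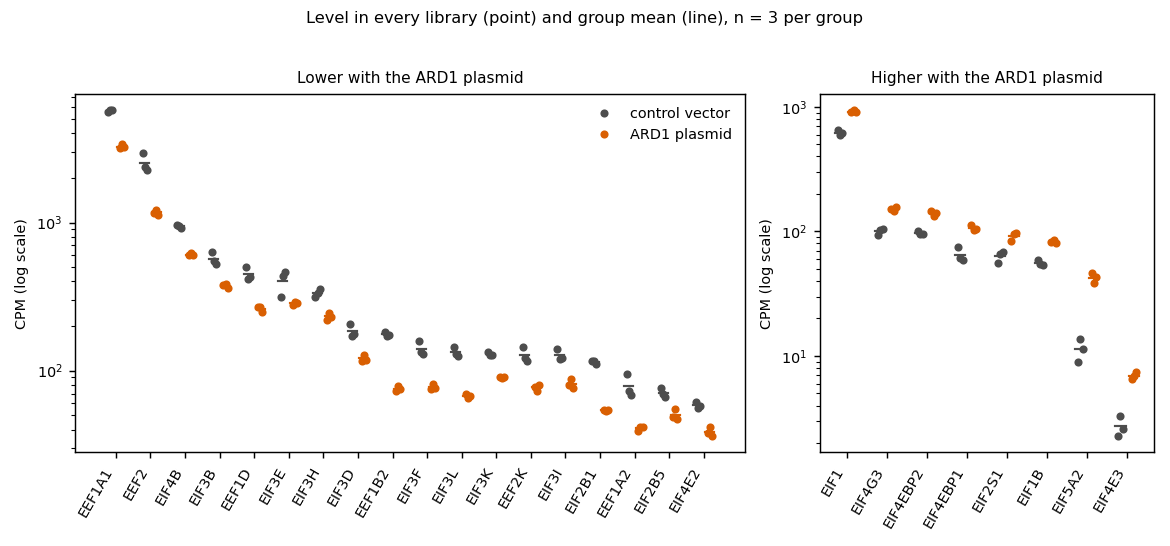
Normalised level (CPM, log scale) in each of the 6 libraries for the 26 members with an adjusted p under 0.05, a log2 change of 0.5 or more in size and no overlap of the groups. Points are libraries and lines are group means (n = 3), with the 18 lower members on the left and the 8 higher on the right. EEF1A1 and EEF2 lie highest on the left, and EIF5A2 and EIF4E3 show the widest gap between groups on the right.

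The 26 members in the plot of levels by library compare with 44.3% of all tested genes that met the same conditions, 21.7% higher and 22.6% lower. In all, 36 members were called without overlap between the groups, beside 63.2% of all tested genes. Across the 63 members, the log2 fold change had a Pearson r of -0.44 with the log2 control level, -0.32 with GC content and 0.09 with log2 transcript length. These describe genes measured in the same 6 libraries and are not tests. The control level is also part of the fold change, so noise in the control level can by itself push the r of -0.44 down.

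Paralogue balance was read from the ratio of 2 genes' counts within a library, which no library scaling changes, but GC and length offsets can. With the offsets, log2 fold changes were 1.49 for EIF5A2 and 0.24 for EIF5A, and 0.48 for EIF4G3 and 0.29 for EIF4G1. Those of EIF4E2, EIF4E3 and EIF4E were -0.64, 0.95 and -0.23. The pairs thus lay closer than in the main fit, though hardly so for EIF4E3 and EIF4E. The ratios themselves were not computed with the offsets. With 3 against 3 libraries the exact two-sided permutation test cannot go below p = 0.1, so none of the 9 ratios could pass, and 4 reached that limit (Benjamini-Hochberg adjusted p = 0.225 over the 9). EIF5A2 counts were 1.78, 3.19 and 2.68% of EIF5A counts in control libraries and 10.5, 8.68 and 9.95% in ARD1 libraries, a log2 difference of 1.97. EIF4E3 counts were 7.51, 8.54 and 6.19% of EIF4E counts in control libraries and 17.0, 15.8 and 19.6% in ARD1 libraries, a difference of 1.24. EIF4E2 counts were 2.03, 1.44 and 1.36 times those of EIF4E in control libraries and 0.991, 0.952 and 0.955 times in ARD1 libraries, a difference of -0.71. Relative to EIF4E, every ARD1 library thus had more EIF4E3 and less EIF4E2 than any control library. EIF4G3 counts were 11.8, 15.6 and 17.2% of those of EIF4G1 in control and 20.8, 19.6 and 22.1% in ARD1 libraries, a difference of 0.50. The ratio of EIF1B to EIF1 differed by -0.01 (exact permutation p = 0.8), that of EEF1A2 to EEF1A1 by -0.13 (exact permutation p = 0.8), and that of EIF4EBP1 to EIF4EBP2 by 0.20 (exact permutation p = 0.2). Those of EIF4A2 to EIF4A1 and of EIF4G2 to EIF4G1 differed by -0.22 and -0.14 (exact permutation p = 0.3 and 0.4). These 5 ratios overlapped between groups.

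**Figure D3:**
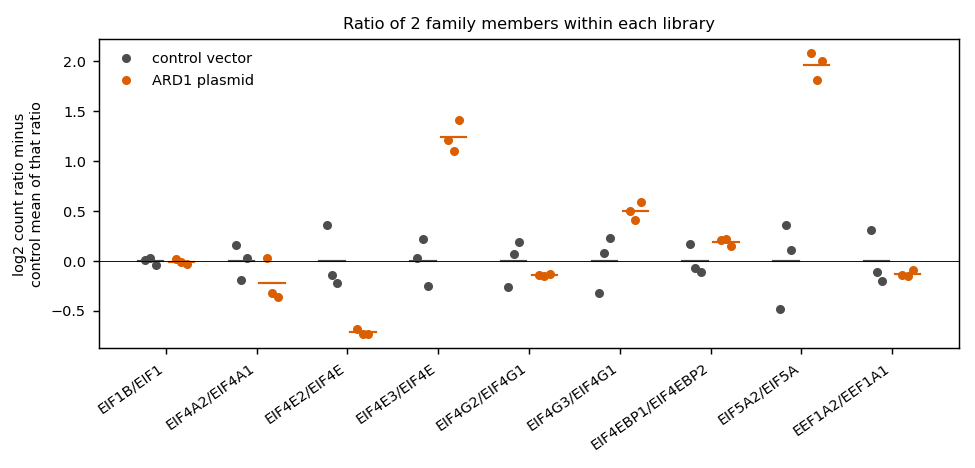
Log2 ratio of the counts of 2 family members in each library, minus the control mean of that ratio (y axis), for the 9 paralogue pairs. Points are libraries and lines are group means (n = 3); the ARD1 libraries lie apart from the control libraries for EIF4E2/EIF4E, EIF4E3/EIF4E, EIF4G3/EIF4G1 and EIF5A2/EIF5A, with differences of -0.71, 1.24, 0.50 and 1.97.

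RefSeq start windows were found for 50 of the 63 members, 11 of them with more than 1 start, and none for the other 13. Of the members without a window 7 were lower and 1 higher, and the split by start leaves them out. The search for a first base C followed by at least 4 bases that are all C or T, on the transcribed strand, was chosen after the data were seen. It matched 13 members: EEF1A1, EEF1B2, EEF2, EIF2A, EIF2D, EIF2S3, EIF2S3B, EIF3D, EIF3F, EIF3K, EIF3M, EIF4A2 and EIF4B. Of these 11 were lower, none higher and 2 not called, with a median log2 fold change of -0.53. Of the other 37 members with a window, 7 were lower and 12 higher, with a median of 0.11. By library totals alone 7 of the 13 were lower and none higher (median -0.26), against 6 lower and 22 higher of the 37 (median 0.37). The pattern was present in 4.07% of the 35116 windows of all genes and in 7.12% of the 11526 tested genes with a window, compared with 26.0% of the members with one. Among the 821 tested genes that have it, members included, 45.1% were lower and 24.8% higher (median -0.18), and among the 10705 without it 32.3% were lower and 33.9% higher (median 0.04). In a list of TOP mRNAs taken from the literature, 9 of the 10 members in the table were lower and EIF3A was not called (median -0.71; 7 lower with library totals alone, median -0.44). A window was found for 6 of the 10, and all 6 have the pattern. As TOP mRNAs are defined by such a start, this is not separate evidence.

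**Figure D4:**
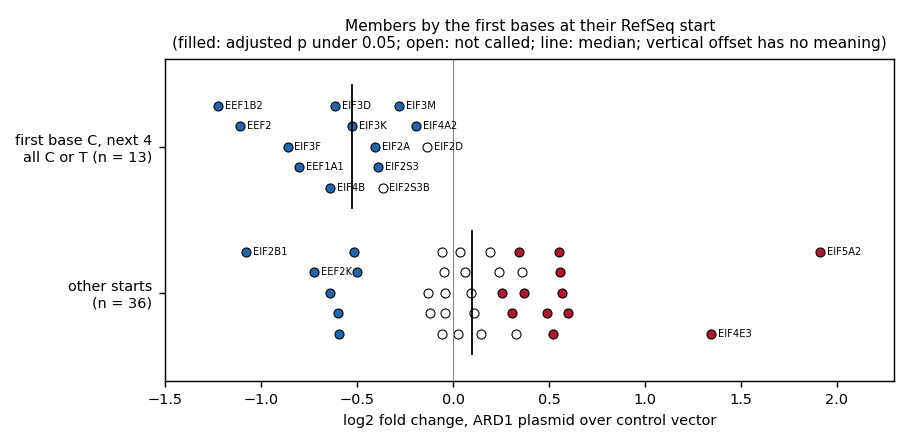
Log2 fold change (x axis) of members with a RefSeq start window, split by whether the first base is C and the next 4 are all C or T (13 members) or not (36 of 37 drawn). Filled points passed an adjusted p of 0.05, vertical lines are medians, and vertical position within a band has no meaning. No member of the upper band lies right of 0, and the lower band spans EIF2B1 at -1.08 to EIF5A2 at 1.91.

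Letters of regulatory motifs were looked for in the 300-base windows (250 bases before and 50 from the start), on both strands. CACGTG, the E-box letters bound by MYC and its relatives, occurred in 13 of the 50 members with a window (26.0%), in 12.1% of the 11526 tested genes with one and in 7.26% of all windows. Of the 13 members 3 were higher and 4 lower, beside 33.7% higher and 34.4% lower of the 1397 tested genes with these letters. TGATGNAA, the letters of the composite element bound by ATF4, occurred only in EIF4E3 among the members, in 2.86% of the tested genes and in 3.62% of all windows. A match is a description of these letters and not a binding site.

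Other genes of translation were counted from a list of 73, of which 72 were tested. Of these 29 were higher, 16 lower and 27 not called (median log2 fold change 0.15), beside 32.4% higher and 32.2% lower of all tested genes. The split depended on the correction, with 24 higher and 23 lower under the GC and length offsets, and 48 higher and 9 lower by library totals alone. Among the poly(A)-binding proteins, PABPC1 and PABPC4 were lower (-0.35 and -0.42), PABPC1 not with library totals alone (-0.08), and the eIF4G-like partner PAIP1 was higher (0.21, but 0.09 and not past the threshold with the offsets). The PAIP1 call was also lost without a filter on low counts and without control replicate 2 or any 1 ARD1 replicate. On the eIF2 side 4 were higher and 1 lower. PPP1R15A, also called GADD34, which directs dephosphorylation of the eIF2 alpha subunit, was at 74.6, 66.5 and 68.8 CPM in the 3 controls, against 284, 319.99 and 269 CPM after ARD1 (log2 change 2.06 with SE 0.0826, adjusted p = 3.21e-11). It rose 4.16-fold, the largest rise of the 72. EIF2AK4, the kinase GCN2 that senses uncharged tRNA, was higher (0.68), and PPP1CA, a catalytic phosphatase subunit, lower (-0.57).

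In cap-dependent control 7 of 16 genes were higher and 5 lower. MKNK1, a kinase of eIF4E, and MTOR, the kinase that phosphorylates the 4E-binding proteins, were higher (0.97 and 0.77), while CYFIP1, a repressor that binds eIF4E, and MLST8, a subunit of the mTOR complexes, were lower (-0.93 and -0.85). Of the 11 scanning, recycling and reinitiation helpers 5 were higher and 2 lower, led by the scanning helicase DHX29 (0.57, 0.37 without control replicate 1) and the methionine aminopeptidase METAP2 (0.44, 0.29 without it). BZW2, a mimic of eIF5, fell by the most (-1.001), and METAP1 was lower (-0.30) but not with library totals alone (-0.04). Termination genes gave 3 higher and 1 lower of 6. The release factors ETF1 and GSPT2 were higher (0.52 and 0.60) and GSPT1 lower (-0.30, but -0.04 and not past the threshold with library totals alone).

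Enzymes that modify eIF5A and eEF2 gave 3 higher and 1 lower of 9. The diphthamide genes DNAJC24 and DPH5 were higher (0.54 and 0.32), DPH5 losing its call with the offsets (0.18) and without control replicate 2 or ARD1 replicate 2, and DPH2 was lower (-0.49) but did not pass with library totals alone (-0.22). For selenocysteine, EEFSEC, the dedicated elongation factor, was lower (-0.62), while SEPHS2 and SEPSECS of its tRNA pathway were higher (0.57 and 0.38), SEPSECS not with the offsets (0.06). Among the mitochondrial factors 3 were higher and 3 lower of 10. GUF1, a ribosome back-translocase, and MTIF2 were higher (1.24 and 0.47), and MTIF3 and the elongation factor TUFM lower (-0.62 and -0.50), MTIF3 not past the threshold with library totals alone (-0.36).

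**Figure D5:**
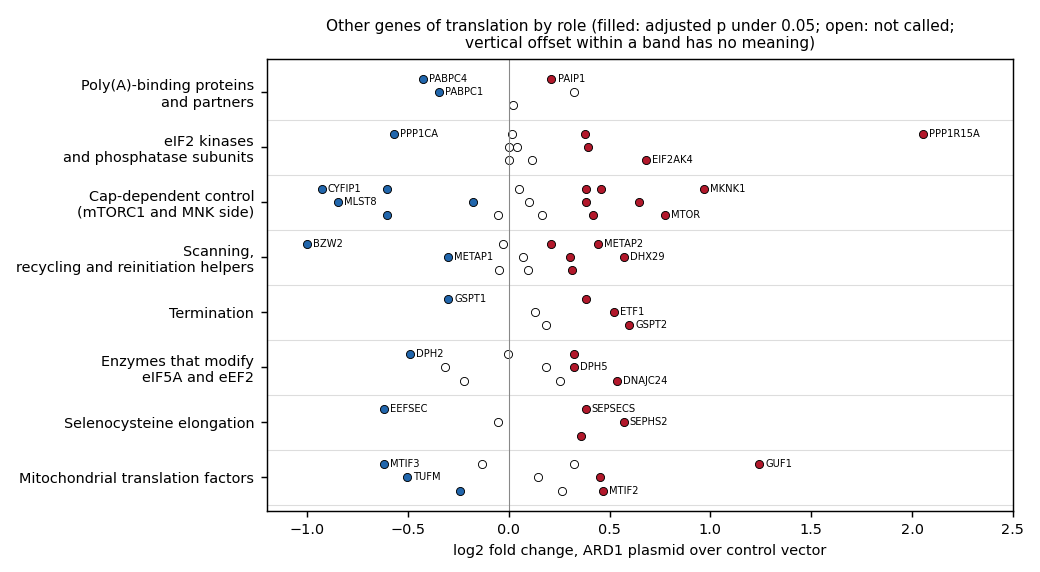
Log2 fold change (x axis) of the 72 tested genes of translation that are not members, by role. Filled points passed an adjusted p of 0.05, open points did not, and vertical position within a band has no meaning. PPP1R15A lies farthest right at 2.06 and BZW2 farthest left at -1.001.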

How the data were processed

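RNA from 6 libraries of PLC/PRF/5 cells, 3 per group, was depleted of ribosomal RNA and made into directional libraries, per the labels' protocols. The submitters' processing notes name cutadapt 4.6, STAR 2.7.11b and GRCh38. Which counting program, strand setting and annotation release were used is not given in the sources used here, so reads of a gene and an overlapping partner may not be told apart. The deposited table holds the authors' raw, whole-number counts per Ensembl gene, without normalization, and every gene has at least 2 counts over the 6 libraries. The standard errors and 95% intervals include the spread between libraries as estimated by the edgeR fit. No molecular identifiers were used. The sample titles gave the groups and replicate numbers. No label says whether libraries were separate cultures, and p-values then measure only the spread between these 6 libraries, which could be technical.

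All 25071 genes entered edgeR 4.0.16 (R 4.3.3). filterByExpr kept 15816 and removed 9255, libraries were scaled by TMM, and the groups were compared with the quasi-likelihood test over all 6 libraries without covariates, with Benjamini-Hochberg adjusted p under 0.05 over all tested genes. No set test was made. CPM values are TMM-normalised, levels between genes were compared only per kb of exon, and standard errors were derived from the F statistic. Of the identifiers 25052 had a symbol and 23129 were found in GENCODE 29, which gave gene type, coordinates, exon overlap, GC content and length. Sequences and starts are from RefSeq (GRCh38.p14). Protein sequences were not used here. The members, complexes and lists were chosen with earlier results of these data known. Levels in every library were given for members with an adjusted p under 0.05, no overlap and a log2 change of 0.5 or more in size, for both genes of each paralogue pair, and for the member with the highest level per kb in each complex. In each role of the other translation genes, up to 2 called rises and 2 called falls were named. EIF1AY, on the Y chromosome, is counted but not shown by library, and members named beyond the rule, such as EIF3C, were chosen after their values were seen. On simulated counts for the 15816 genes, the edgeR step recovered 88.1% of 67 genes changed 1.5-fold. It recovered 100% of 67 changed 2-fold and of 66 changed 4-fold. The changed genes were few, about evenly up and down, and all well counted. The simulation therefore cannot speak to the scaling of these libraries or to members with low counts. Alternatives were RLE and upper-quartile scaling, library totals alone, library sizes without NAA10, loess offsets for GC content and length (span 0.3), DESeq2 1.42.0, limma-voom (limma 3.58.1), no filter, 1 CPM in 3 libraries, a replicate block, leaving out each library, and a threshold of 1 on the size of the log2 change. Paralogue ratios were also computed with a pseudocount of 1 count.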

Additional observations from a re-analysis of the deposited data

How the results depend on the processing

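Of the 38 called members, 27 kept their call and direction in every fit. Library totals alone moved the factor genes higher to 25 and the other translation genes to 48 higher and 9 lower, whereas the GC and length offsets gave 24 and 23 of the latter. A threshold of 1 on the size of the log2 change left 2 factor genes higher and 3 lower, 2 and 1 other translation genes, and 1536 and 1870 of all genes. Leaving out 1 library gave 11 to 16 factor genes higher and 22 to 28 lower, 4586 to 5414 and 4685 to 5570 of all genes, and 25 to 30 and 14 to 19 other translation genes. Same-numbered libraries did not deviate together (r = 0.0168, -0.0356 and 0.0342 over genes), and with the replicate number as a block 14 factor genes were higher and 25 lower, with all 38 calls kept. The sign of some members not called in the main fit, and of EIF4A2, reversed, and the cause was not tested. Log2 changes became, with library totals alone, EIF5 0.20, EIF5B 0.20, EIF2D 0.13, EIF4A2 0.0684, EIF4G2 0.22, EIF5A 0.23, EIF5AL1 0.13, EIF6 0.15, EEF1AKMT4 0.22 and EEF2KMT 0.12, with upper-quartile scaling EIF4G2 0.00211 and EIF5A 0.00203, and with GC and length offsets EIF1AX -0.19, EIF3A -0.0771, EIF4E -0.23, EIF5A 0.24, EIF6 0.17, EEF1E1 -0.0551, EEF1AKMT4 0.26 and EEF2KMT 0.0342. Members whose sign depended on 1 left-out library were, with their ranges, EIF2S2 (-0.0699 to 0.15), EIF2B4 (-0.042 to 0.0883), EIF3CL (-0.67 to 0.12), EIF4A1 (-0.12 to 0.17), EIF4E (-0.0297 to 0.18), EIF4G1 (-0.0169 to 0.19), EIF4H (-0.00391 to 0.10), EIF5A (-0.12 to 0.0376), EEF1AKMT1 (-0.0672 to 0.37) and EEF1AKMT4 (-0.24 to 0.11). The paralogue differences ranged over the left-out libraries for EIF1B/EIF1 (-0.0262 to 0.0105), EIF4A2/EIF4A1 (-0.34 to -0.13), EIF4E2/EIF4E (-0.82 to -0.54), EIF4E3/EIF4E (1.12 to 1.35), EIF4G2/EIF4G1 (-0.27 to -0.0449), EIF4G3/EIF4G1 (0.34 to 0.62), EIF4EBP1/EIF4EBP2 (0.14 to 0.28), EIF5A2/EIF5A (1.73 to 2.15) and EEF1A2/EEF1A1 (-0.23 to 0.0288), and only the first and the last changed sign. The effect of depth on the rarest members, such as EIF4EBP3, was not tested.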
